A study of Mus musculus with 48 samples.

Results

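Acetylation of histone H3 at lysine 9 (H3K9ac) was mapped by ChIP-seq in neurons of the hippocampal CA region, and the deposited peak lists of 3 libraries labelled Setd1b cKO (conditional knockout) and 4 labelled Control were compared. These 7 libraries are the samples of the series, 48 in all, that were made with a Millipore antibody to H3K9ac. Each is a list of regions where the mark was enriched over input DNA, and the comparison covers chromosomes 1 to 19. All mice of both genotypes were adult C57BL/6J animals of 4 to 6 months, and chromatin was taken from fixed nuclei of neurons sorted by flow cytometry. Agents or further alleles are not named in the labels, and the promoter or cell type that drives the deletion is not given in the sources used here. The libraries carry the numbers 1, 2 and 4 for cKO and 1 to 4 for Control. The labels do not state that they came from separate animals, so p-values measure only the spread between these libraries. The comparison asks whether H3K9ac peaks were present, as long and as high in both genotypes.

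H3K9ac is placed by acetyltransferases such as KAT2A and KAT2B, is removed by histone deacetylases, and marks promoters and enhancers in use. SETD1B is the catalytic subunit of a COMPASS complex, which methylates histone H3 at lysine 4, and a partner subunit of that complex binds CpG dinucleotides that carry no methyl group. Trimethylation of lysine 4 (H3K4me3) sits at active promoters, and at highly used genes of a cell type it can spread far into the gene. In hippocampal neurons, histone acetylation and methylation have both been studied for their part in learning.

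The bases before the starts of 5 genes are shown because H3K9ac at each of them was shorter in the cKO-labelled libraries, and because the first 3 also had less RNA there. Each run is the 250 bases before the transcription start, written 5′ to 3′ on the gene's own strand, from RefSeq on GRCm38.p6. Capitals mark CG dinucleotides, the element that the COMPASS partner subunit recognises. The runs lie at chr19:10457448-10457697 on the minus strand (Lrrc10b), chr2:148395127-148395376 on the plus strand (Sstr4), chr7:64873041-64873290 on the minus strand (Nsmce3), chr10:98914902-98915151 on the plus strand (Atp2b1) and chr4:68954398-68954647 on the minus strand (Brinp1).
Lrrc10b: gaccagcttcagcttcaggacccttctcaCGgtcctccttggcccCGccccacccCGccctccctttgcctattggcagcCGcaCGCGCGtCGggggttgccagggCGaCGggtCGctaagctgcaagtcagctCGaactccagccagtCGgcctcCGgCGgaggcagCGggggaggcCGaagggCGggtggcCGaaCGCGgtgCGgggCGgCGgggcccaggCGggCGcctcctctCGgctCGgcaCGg
Sstr4: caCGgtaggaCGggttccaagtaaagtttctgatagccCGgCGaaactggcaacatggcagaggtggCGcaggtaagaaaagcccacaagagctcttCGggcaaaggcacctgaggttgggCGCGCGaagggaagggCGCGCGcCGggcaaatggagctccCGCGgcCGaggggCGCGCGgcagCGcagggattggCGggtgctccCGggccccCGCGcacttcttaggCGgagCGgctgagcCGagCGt
Nsmce3: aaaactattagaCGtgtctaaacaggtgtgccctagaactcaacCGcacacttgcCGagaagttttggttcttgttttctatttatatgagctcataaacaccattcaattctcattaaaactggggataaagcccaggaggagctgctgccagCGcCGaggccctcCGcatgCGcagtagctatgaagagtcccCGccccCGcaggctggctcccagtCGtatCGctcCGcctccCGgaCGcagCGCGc
Atp2b1: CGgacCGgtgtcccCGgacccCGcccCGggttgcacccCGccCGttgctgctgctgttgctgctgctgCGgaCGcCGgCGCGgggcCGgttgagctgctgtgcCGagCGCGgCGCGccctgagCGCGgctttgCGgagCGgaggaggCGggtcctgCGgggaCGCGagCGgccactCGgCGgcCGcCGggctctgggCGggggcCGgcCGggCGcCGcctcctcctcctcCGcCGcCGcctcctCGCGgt
Brinp1: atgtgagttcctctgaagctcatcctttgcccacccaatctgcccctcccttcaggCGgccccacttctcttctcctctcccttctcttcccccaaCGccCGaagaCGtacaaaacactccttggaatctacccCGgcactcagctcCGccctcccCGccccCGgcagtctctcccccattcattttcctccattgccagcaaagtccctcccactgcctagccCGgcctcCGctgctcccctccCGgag
These runs hold 29, 28, 16, 41 and 11 CG dinucleotides in the order shown. Over 31396 starts of chromosomes 1 to 19 in the RefSeq table the median was 6 (CG read on 1 strand is the same site on the other), and 38.3% of starts had 10 or more. Starts at regions with an H3K9ac peak in every library (15298) had a median of 16, and 71.4% had 10 or more. The 25 table starts at regions called shorter had a median of 19, with an interquartile range of 14 to 32.

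The H3K9ac libraries held 35.7 to 39.0 M tags and 107536 to 138833 peaks on these chromosomes. A single input library served each genotype, with 31.3 M tags for cKO and 28.8 M for Control, or 8.70% more for cKO. Per the file headers the larger of each ChIP and input pair was scaled towards the smaller, so this gap enters the peak heights. Since each genotype had an input of its own, a difference in input cannot be told apart from one of genotype. RNA from 6 neuron libraries, 3 labelled with each genotype, held 55.7 to 69.1 M counted reads. Setd1b itself had 60.2, 62.0 and 71.6 CPM (counts scaled to the size of the library) in RNA labelled cKO and 65.5, 50.2 and 47.8 in RNA labelled Control. Its log2 difference was 0.25 (SE 0.13, edgeR adjusted p 0.361), so the RNA did not show a loss. A count over the whole gene cannot check the deletion of a part of it, and directions below are therefore those of the labels. Libraries cKO 1 and Control 1 were sequenced in lane 5 and the others in lane 6, per the names of the deposited lists.

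At genes with broad H3K4me3, H3K9ac covered fewer base pairs downstream of the start in each cKO-labelled library than in any Control-labelled one, while upstream of the start the genotypes overlapped. This was measured at 12728 starts of protein-coding genes, grouped by how many base pairs (bp) within 5 kb of the start were covered by H3K4me3 peaks in the 4 Control-labelled H3K4me3 libraries. At the 956 starts with 4000 bp of H3K4me3 or more, H3K9ac peaks covered 1899, 1935 and 1752 bp of the window 1 to 5 kb downstream in cKO-labelled libraries 1, 2 and 4. The Control-labelled libraries 1 to 4 covered 2320, 2491, 2493 and 2532 bp there. Every cKO-labelled value lay below every Control-labelled one, at 1862 ± 97.0 (SD, n = 3) against 2459 ± 94.4 bp (SD, n = 4). In the window 1 to 5 kb upstream the same starts had 691, 706 and 616 bp against 605, 684, 653 and 687 bp, and the genotypes overlapped (exact permutation p 0.657). At the 3431 starts with 2000 to under 4000 bp of H3K4me3, the downstream window held 653, 684 and 561 bp against 761, 895, 872 and 906 bp. The log2 differences downstream were −0.40 and −0.44, each with the smallest p that 35 splits of 3 against 4 libraries allow (two-sided exact permutation p 0.0286, adjusted 0.214 over 15 windows). At narrower H3K4me3 the downstream window overlapped between genotypes, with −16.7% at 1000 to under 2000 bp (exact permutation p 0.114), +18.8% under 1000 bp (exact permutation p 0.257) and +27.6% at the 4421 starts without H3K4me3 (exact permutation p 0.257). Within 1 kb of the start the differences were small, at −1.58% for the broadest class (exact permutation p 0.0571) and −0.63% for the next (exact permutation p 0.457).

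**Figure D1:**
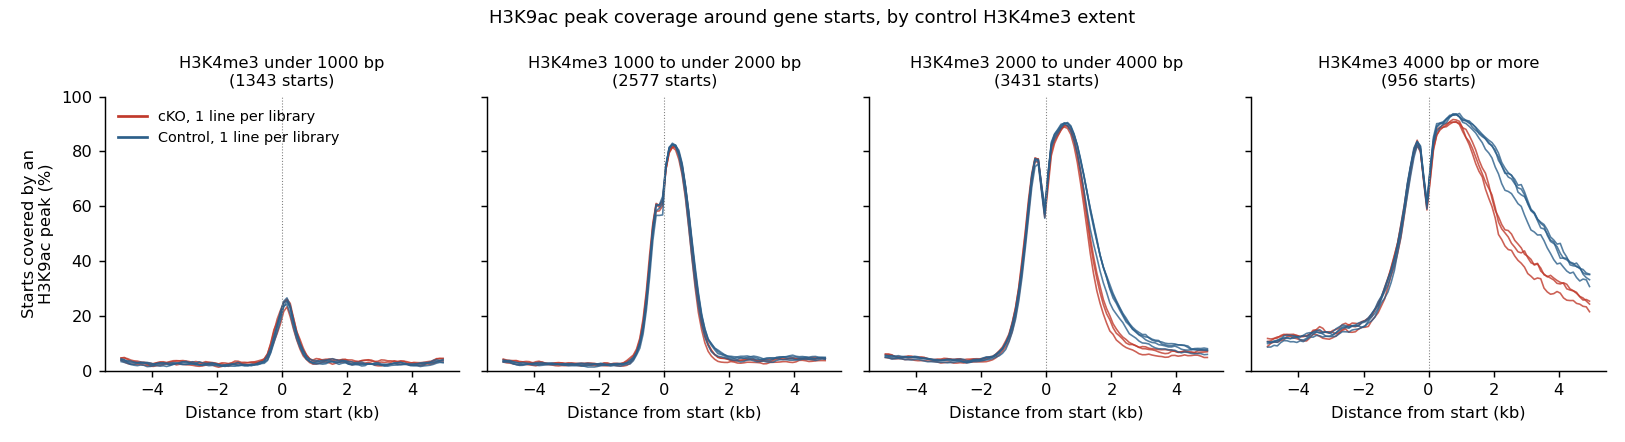
The share of gene starts covered by an H3K9ac peak (y axis, percent) is plotted against the distance from the start in kb along the gene's strand, 1 line per library, in 4 panels by the extent of H3K4me3 in Control-labelled libraries. In the panel with 4000 bp or more the 3 cKO lines fall below the 4 Control lines downstream of the start, where they cover 1862 against 2459 bp on average, and run together upstream.

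The downstream length over the upstream length sets both sides of a start against each other within a library. The ratio was chosen after the profile had been seen. At starts with 4000 bp or more of H3K4me3 it was 2.75, 2.74 and 2.84 in the cKO-labelled libraries and 3.84, 3.64, 3.82 and 3.69 in the Control-labelled ones. The genotypes did not overlap, and the mean was lower by the cKO label, 2.78 ± 0.056 (SD, n = 3) against 3.75 ± 0.095 (SD, n = 4), a difference of −25.8%. The class of 2000 to under 4000 bp gave 3.01, 3.05 and 3.23 against 4.35, 4.14, 4.38 and 4.27 (−27.8%), and that of 1000 to under 2000 bp gave 1.86, 1.87 and 2.03 against 2.51, 2.48, 2.51 and 2.48 (−23.2%). Each of these 3 classes fell in the exact permutation test (two-sided p 0.0286, adjusted 0.0476 over 5 classes), and in each the genotypes were apart within lane 6 and within lane 5 in the same direction. The log2 differences were −0.35, −0.44 and −0.41 in lane 6 and −0.44, −0.53 and −0.48 in lane 5, from 1000 bp upward, and lane 6 alone (2 against 3 libraries) cannot pass the test. At starts with under 1000 bp of H3K4me3 the ratio was 1.16 ± 0.026 against 1.1 ± 0.054 (exact permutation p 0.143). At starts without H3K4me3 it was 1.0 ± 0.018 against 0.98 ± 0.049 (exact permutation p 0.543).

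H3K27ac, the other acetylation mark measured, had its own libraries (4 labelled cKO, 3 labelled Control) and also had a lower ratio by the cKO label. Its downstream over upstream ratio was 2.0 ± 0.025 against 2.36 ± 0.153 at the broadest class (−15.1%), 1.66 ± 0.024 against 2.15 ± 0.024 at the next (−22.7%) and 1.0 ± 0.024 against 1.19 ± 0.078 at 1000 to under 2000 bp (−15.7%). The exact permutation p was 0.0286 for each, the smallest possible, with no overlap. For H3K4me3 the ratios were 3.22 against 4.66, 4.04 against 6.06 and 3.29 against 4.27 (n = 4 each). Those H3K4me3 values have no test here, since the Control-labelled H3K4me3 libraries set the classes. Whether the change differed in size between marks was not tested.

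The same pattern by extent of H3K4me3 appeared in whole regions. Peaks of the 7 libraries that overlapped were merged into 204773 regions, and 87822 of them (42.9%), with a peak in at least 3 libraries, were sorted by the H3K4me3 and H3K27ac of the Control-labelled libraries of those marks. In the 901 regions with 4000 bp or more of H3K4me3, H3K9ac covered a mean of 5146, 5206 and 4924 bp in the cKO-labelled libraries and 5588, 5840, 5835 and 5883 bp in the Control-labelled ones. Every cKO-labelled library was lower, 5092 ± 149 against 5787 ± 134 bp or −12.0% (percent differences are taken from the means of log2 values). In the 4256 regions with 2000 to under 4000 bp the values were 2318, 2357 and 2226 against 2457, 2601, 2597 and 2628 bp (−10.51%), again with no overlap. Neither difference passed (exact permutation p 0.0286, adjusted 0.0857 over 6 classes). In the 9041 regions with 1000 to under 2000 bp the groups overlapped (−3.69%, exact permutation p 0.2).

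Narrow regions leaned the other way without passing. The 29714 regions with some H3K4me3 but under 1000 bp had 571 ± 46.4 bp by the cKO label against 514 ± 34.3 bp (+11%, exact permutation p 0.171). The 29717 regions with H3K27ac and no H3K4me3, the usual marks of enhancers, had 436, 452 and 339 bp against 276, 345, 323 and 350 bp (+25.9%, exact permutation p 0.114). Library cKO 4 lay among the Control-labelled libraries in that class. The 14193 regions with neither mark had 175 bp on average in both genotypes (exact permutation p 0.971). When only peaks with a −log10 q of at least 5 were kept, the 2 broad classes were shorter and the 3 narrow ones longer in the cKO-labelled libraries, and each passed (exact permutation, adjusted p 0.0343), including the class with neither mark, whose log2 difference turned to 0.53.

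**Figure D2:**
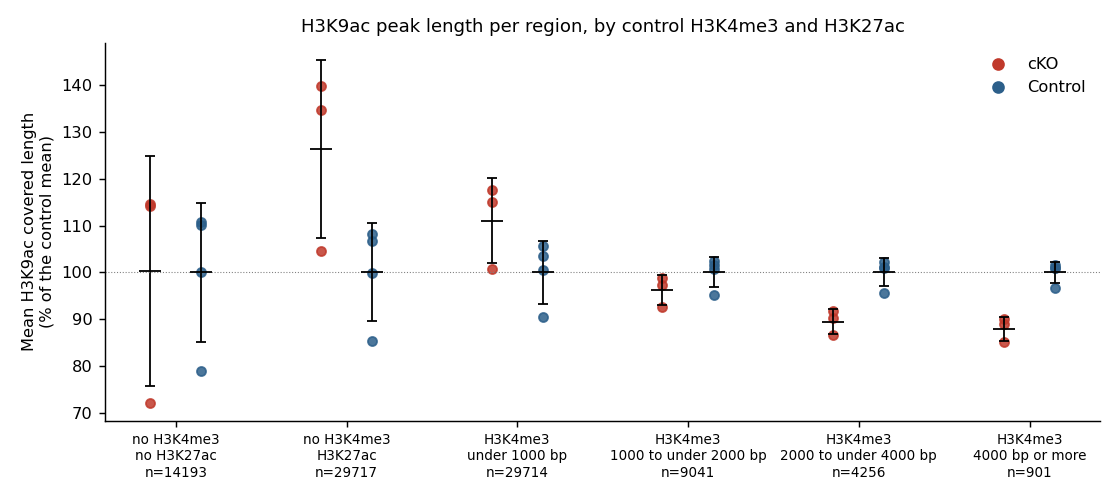
Mean H3K9ac covered length per region in each library, as a percent of the mean of the Control-labelled libraries (y axis), is plotted for 6 classes of regions by the H3K4me3 and H3K27ac of Control-labelled libraries, with bars for the mean and SD. The cKO points lie below all Control points in the 2 classes with 2000 bp of H3K4me3 or more and overlap them or lie above in the narrower classes.

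Peak heights were compared in the same classes. Over regions with a peak in all 7 libraries, the median fold enrichment was 10.64 ± 0.378 by the cKO label against 10.57 ± 0.241 at 1000 to under 2000 bp of H3K4me3 (exact permutation p 0.857) and 14.1 ± 0.558 against 14.9 ± 0.419 at 4000 bp or more (exact permutation p 0.0857). It was higher by the cKO label, without overlap, under 1000 bp (5.45 against 5.20) and at regions with H3K27ac only (4.38 against 4.22; exact permutation p 0.0286 each, not adjusted). The pileup, the number of overlapping fragments at a peak's summit, was 41.4 against 38.1 at 1000 to under 2000 bp, but pileups are scaled to the input's depth, which was 8.70% greater for cKO. The background derived from pileup and fold enrichment had class medians of 2.76 to 2.93 in cKO-labelled libraries and 2.35 to 2.68 in Control-labelled ones. These medians lie at the caller's genome-wide floor, the input tags times the fragment length over the genome size, which ran from 2.76 to 2.93 and from 2.35 to 2.68, so they measure depth and fragment length and no local input.

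Across whole peak lists the genotypes stood apart in the longest peaks. The 99th percentile of peak width was 2483, 2625 and 2554 bp in the cKO-labelled libraries and 2874, 3050, 3126 and 3161 bp in the Control-labelled ones, a difference of −16.3% without overlap. The 95th percentile was 1458, 1558 and 1562 bp against 1564, 1657, 1680 and 1703 bp (−7.57%, exact permutation p 0.0571). The median width was 301, 329 and 320 bp against 290, 310, 314 and 324 bp, with overlap (exact permutation p 0.543). None of 15 measures of the lists passed adjustment, and the 99th percentile had an exact permutation p of 0.0286, adjusted to 0.286. The number of peaks was 138833, 128627 and 107536 against 108217, 117343, 111463 and 114485 (+10.2%, exact permutation p 0.257). Libraries cKO 1 and cKO 2 had the most peaks, and cKO 4 the fewest of all 7.

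**Figure D3:**
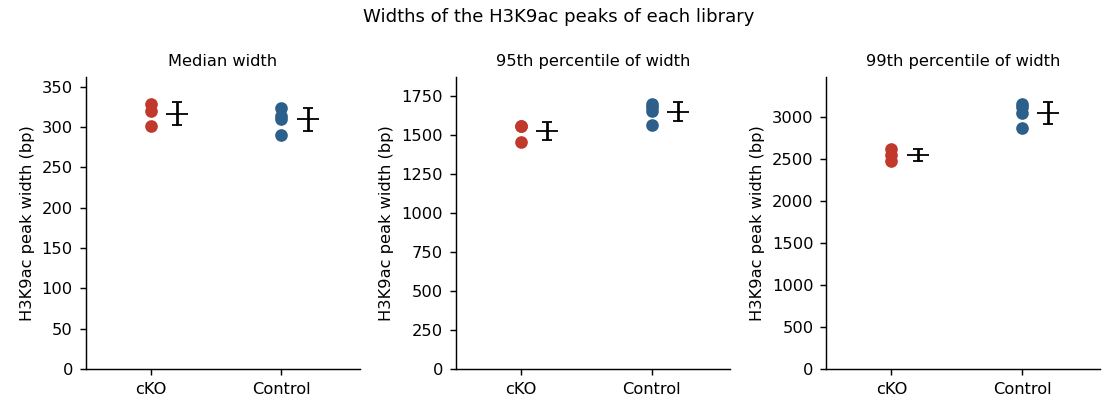
Median, 95th and 99th percentile of H3K9ac peak width in bp (y axes, from 0) are plotted for each of the 3 cKO-labelled and 4 Control-labelled libraries, with bars for the mean and SD. The median widths overlap, and the 99th percentiles lie between 2483 and 2625 bp against 2874 and 3161 bp.

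Single regions were tested for length at the 39655 regions (19.4%) where all 7 libraries had a peak. Of these, 58 were shorter by the cKO label (0.146% of those tested) and 23 longer (0.058%) at a limma adjusted p under 0.05, and in each of these 81 (0.204%) the genotypes did not overlap. With each library centred on its own median the counts were 230 and 39. Over all 39655 regions every cKO-labelled library lay below every Control-labelled one at 8.75% and above at 7.75%. The calls needed all 7 libraries. Without any one of them in turn at most 2 shorter and 0 longer regions passed, and within lane 6 none did, while the named regions kept their direction wherever the same region was formed.

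Many of the shorter regions lay under broad H3K4me3. Of the 58, 42 (72.4%) lay where Control-labelled H3K4me3 covered 1000 bp or more, against 35.5% of all regions with a peak in every library, and none lay at the 7918 regions with H3K27ac and no H3K4me3. Their median length was 552.5 bp by the cKO label and 1905 bp by the Control label, beside 840 bp by the Control label over all 39655. H3K4me3 was counted inside the same regions, so its extent can follow their length. The share at regions of like length was not taken. None of the 58 lay between genes (12.1% of all 39655), and 33 or 56.9% lay inside a gene's span (41.4% of all). Within 1000 bp of a start in the RefSeq table lay 19 or 32.8% (36.3% of all), and 6 or 10.3% lay at an end of a gene span (10.3% of all). Span ends were used only for genes without a start in that table, which held starts for 16456 of 20661 protein-coding genes. Such an end can be the gene's start, so the shares at starts are lower bounds.

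Several of the shorter regions were long stretches of H3K9ac. Ppp3ca encodes the catalytic subunit of the calcium-dependent phosphatase calcineurin. Its region chr3:136670125-136677343 lay at an end of the gene span, which can be its start, as the RefSeq table held none for it. H3K9ac covered 2685, 2507 and 2798 bp there in cKO-labelled libraries and 6412, 6803, 7178 and 7212 bp in Control-labelled ones. The highest cKO-labelled library had 2798 bp and the lowest Control-labelled one 6412 bp, for a log2 difference of −1.37 (SE 0.10, limma adjusted p 0.0279). At Atp2b1, a calcium pump of the plasma membrane, chr10:98915136-98921036 had 2543, 2221 and 2545 bp against 4904, 5500, 5901 and 5488 bp (log2 −1.16, SE 0.11, limma adjusted p 0.0302). This region begins 16 bp before the start whose 250 bases with 41 CG dinucleotides are shown above. Slc24a2, a sodium, potassium and calcium exchanger, had 1226, 1375 and 1222 bp against 2736, 3206, 2973 and 3158 bp at chr4:87224282-87227884 (log2 −1.24, SE 0.10, limma adjusted p 0.0283). At Shisa9, whose product associates with AMPA-type glutamate receptors, chr16:11984491-11989647 had 2132, 1970 and 1971 bp against 4414, 4407, 4862 and 4520 bp (log2 −1.17, SE 0.09, limma adjusted p 0.0283). The Shisa9 region was also named by an end of the gene span, and Gm32278 lay there too. At all 4 regions, which were named for a difference in H3K9ac, H3K4me3 was shorter too (limma adjusted p at most 0.00796). It was 3251 against 7216 bp on average for Ppp3ca and 2889 against 5901 bp for Atp2b1. The RNA of these 4 genes had edgeR adjusted p of 0.480 to 0.767, above the threshold.

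Other shorter regions named by smallest adjusted p lay at the start of a gene. Otud1, a deubiquitinase gene, had 319, 268 and 295 bp against 1203, 1260, 1468 and 1544 bp at chr2:19658676-19660402 (log2 −2.21, SE 0.13, limma adjusted p 0.0129). Its region began 945 bp downstream of the start. Eepd1, a gene with a role in DNA repair, had 703, 800 and 600 bp against 2698, 2146, 2858 and 2975 bp at chr9:25481588-25484918 (log2 −1.93, SE 0.16, limma adjusted p 0.0283). H3K27ac at Eepd1 was shorter as well, 576 against 1492 bp on average (limma adjusted p 0.0357).

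A further 7 of the 12 regions named this way lay inside gene spans. The one within Gal3st3, a sulfotransferase gene, at chr19:5301510-5303042 had 190, 203 and 185 bp against 824, 918, 1052 and 792 bp (log2 −2.21, SE 0.13, limma adjusted p 0.0129), with H3K4me3 of 0 against 42.75 ± 85.5 bp (SD, n = 4). Within Dnttip2, chr3:122276403-122279298 had 537, 463 and 443 bp against 1569, 2174, 1978 and 2650 bp, and H3K4me3 there was 0 bp in all 4 cKO-labelled libraries against 1764 ± 103 bp (SD, n = 4). Within Fam160a1, chr3:85680337-85681424 had 277, 188 and 257 bp against 723, 875, 833 and 806 bp, with H3K4me3 of 0 against 999 ± 88.9 bp. H3K27ac at Fam160a1 covered 911 against 945 bp on average, and there the difference in H3K9ac was larger than that in H3K27ac by an interaction test (limma adjusted p 0.00141). The region was chosen by the same H3K9ac values, which favours such a result. The 4 others lay within Tnfrsf19 (a receptor of the tumour necrosis factor family), Oxr1 (protection from oxidative damage), Arpc3 (a subunit of the actin-branching Arp2/3 complex) and Limch1, with log2 differences from −2.32 to −1.60. No overlap between the genotypes was a condition for naming these 12. The value of each library is drawn in the plot of H3K9ac length by gene.

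**Figure D4:**
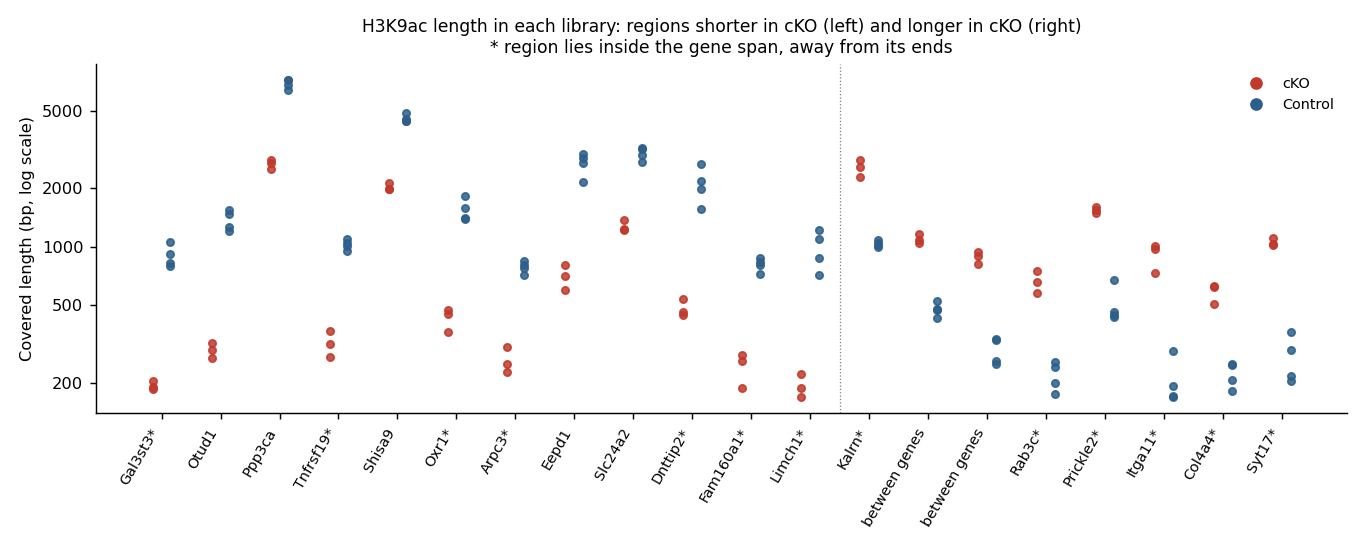
H3K9ac covered length in bp (y axis, log scale) is plotted for each library at the 12 shorter and 8 longer regions with the smallest adjusted p, cKO-labelled and Control-labelled libraries side by side. Each region has 3 cKO points on one side of its 4 Control points, which was a condition for its choice. Ppp3ca is the longest of them, at 2507 to 2798 bp against 6412 to 7212 bp.

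Shorter regions that reached well to both sides of a start were split there, after the profile of all starts had been seen. Of 18 shorter regions near a start of the RefSeq table, 8 lay wholly downstream and 2, at Commd1 and Adgrb3, wholly upstream, so that their position set the side, and Eepd1, Atp2b1 and Zbtb41 had at most 37 bp upstream. Sstr4, a somatostatin receptor gene, had 3137, 2666 and 2922 bp downstream against 5600, 5568, 5718 and 5419 bp, and 555, 623 and 595 bp upstream against 629, 623, 735 and 723 bp. Brinp1, a gene of nervous tissue, had 3288, 3562 and 3256 bp downstream against 5946, 6165, 6380 and 6897 bp, with 1208, 1023 and 1348 bp upstream against 1175, 1401, 1223 and 1310 bp. Upstream of Brinp1 the genotypes overlapped. At Htr5a, a serotonin receptor gene, the downstream mean was 1380 against 3091 bp and the upstream mean 423 against 417 bp. Kcna4, a voltage-gated potassium channel gene, had downstream and upstream means of 1499 against 2959 and 393 against 414 bp, and Sertm1 had 1689 against 3884 and 729 against 784 bp. These genes and Atp2b1, Lrrc10b and Nsmce3 lie outside the 12 taken by smallest adjusted p and were picked after their values were seen.

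Longer regions were few, and all but 1 lay away from gene starts. Of the 23, 15 or 65.2% had H3K27ac without H3K4me3 (19.97% of all 39655), and 8 or 34.8% had under 1000 bp of H3K4me3 (42.8% of all). Inside gene spans lay 16 or 69.6% (41.4% of all), between genes 6 or 26.1% (12.1% of all) and at a start 1, that of Prcd (36.3% of all). Their median length was 828.7 bp by the cKO label and 269.75 bp by the Control label, beside 840 bp by the Control label over all 39655. Here too the shares at regions of like length were not taken. Within Kalrn, an exchange factor of dendritic spines, chr16:34202600-34205933 had 2556, 2781 and 2272 bp by the cKO label against 997, 1015, 1086 and 1038 bp (log2 1.29, SE 0.10, limma adjusted p 0.0283). All cKO-labelled values there were more than 1000 bp above the Control-labelled ones. Within Prickle2, a planar polarity gene, chr6:92608177-92610227 had 1536, 1590 and 1495 bp against 459, 434, 445 and 676 bp (log2 1.64, SE 0.17, limma adjusted p 0.0365). Within Syt17, a synaptotagmin gene, chr7:118396924-118398153 had 1036, 1107 and 1022 bp against 215, 365, 295 and 204 bp (log2 2.01, SE 0.22, limma adjusted p 0.0365). Within Rab3c, a GTPase of synaptic vesicles, chr13:110144926-110145916 had 578, 747 and 657 bp against 254, 199, 241 and 174 bp (log2 1.62, SE 0.17, limma adjusted p 0.0365). It was the one longer region where H3K27ac passed too, at 916 against 524 bp (limma adjusted p 0.0323). The others named by the same rule lay within Itga11 (an integrin subunit) and Col4a4 (a collagen chain) and between genes at chr11:57414851-57416195 and chr14:76777933-76779185, with log2 differences from 1.2 to 2.16.

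Other regions had peaks in 1 genotype only. Of the 204773 regions, 684 (0.334%) had a peak in every Control-labelled library and in no cKO-labelled one, and 1499 (0.732%) the reverse. Presence itself was not tested, and 87576 regions (42.8%) had a peak in 1 library only, of which cKO 1 alone held 21436. The 2 sets stood in different places. Of the 684 absent by the cKO label, 46.3% had H3K4me3 in Control-labelled libraries, against 26.4% of all regions, and 7.60% lay between genes, against 16.2% of all. Of the 1499 present only by the cKO label, 54.8% had H3K27ac and no H3K4me3, against 30.1% of all and 33.8% of regions with a peak in at least 3 libraries. Between genes lay 25.3%. None had 1000 bp or more of H3K4me3, but 14095 of the 14198 such regions had a peak in every library and could not be in either set. Leaving out 1 library raised these counts to between 1009 and 1373 and between 2004 and 5231 since fewer libraries then had to share a state.

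**Figure D5:**
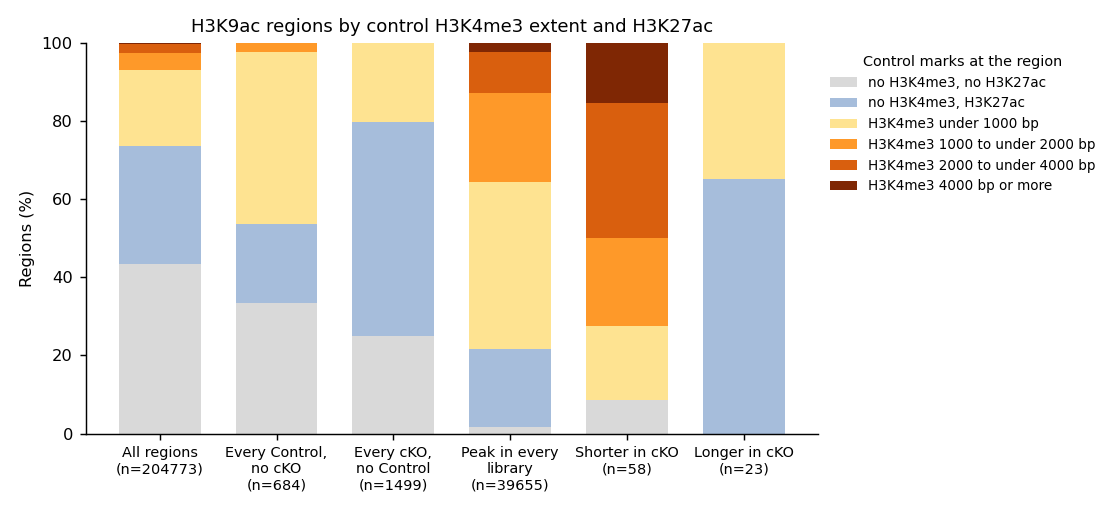
Stacked bars give the percent of regions (y axis) in 6 classes of H3K4me3 extent and H3K27ac in Control-labelled libraries, for all regions, regions where a single genotype had peaks, those where all 7 libraries had one, and regions called shorter or longer. Regions with 1000 bp of H3K4me3 or more make up 72.4% of the shorter regions and 0 of the 23 longer ones.

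The longest absent regions lay inside genes. Within Lrrc4c, a synaptic adhesion gene, chr2:97469936-97471717 had 1393, 1243, 1577 and 1567 bp in Control-labelled libraries and no peak in the 3 others. Within Hnrnpu, a nuclear RNA-binding protein gene, chr1:178333848-178335445 had 1074, 1074, 1423 and 839 bp, and within Celsr3, a cadherin gene of axon guidance, chr9:108829513-108830939 had 799, 1169, 1054 and 1118 bp. Within Rfx3, a transcription factor gene, chr19:28007136-28009491 had 206, 1208, 2124 and 2103 bp, with Control 1 far below the others. H3K4me3 over the Rfx3 region was 2356 bp on average in Control-labelled libraries and 0.25 ± 0.50 bp (SD, n = 4) in cKO-labelled ones (limma adjusted p 4.14e-15).

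Among regions with a peak by the cKO label only, the longest lay within Sdccag8, Arpp21, Gpm6a and Kif21b. Sdccag8 is a centrosome gene, and its region chr1:176921920-176923279 had 1236, 1013 and 590 bp. At chr9:112200860-112201967 within Arpp21, a phosphoprotein gene of neurons, the values were 734, 865 and 928 bp. At chr8:55012139-55013255 within Gpm6a, a neuronal membrane glycoprotein gene, they were 749, 634 and 1048 bp. At chr1:136163306-136164417 within Kif21b, a kinesin gene, they were 522, 955 and 895 bp. Control-labelled libraries had no H3K9ac peak at any of the 4, and H3K4me3 was at 0 bp there in both genotypes. H3K27ac at the first 3 covered 1360, 1108 and 1048 bp on average by the cKO label. In Control-labelled libraries it covered 1038, 399 and 401 bp there (limma adjusted p 0.706, 0.582 and 0.244). At Kif21b it covered 189 against 185 bp, and fewer than 2 of 3 Control-labelled libraries had a peak. Among the 8 genes with a peak in 1 genotype only, RNA was lower by the cKO label at Arpp21 (log2 −0.57, edgeR adjusted p 0.00626) and at Lrrc4c, where the peak was absent (log2 −0.57, edgeR adjusted p 0.0291). Among the 20 shorter and longer regions named by smallest adjusted p, RNA was lower at Fam160a1 (−0.92, edgeR adjusted p 0.00209) and Oxr1 (−0.66, edgeR adjusted p 0.0401), which were shorter, and at Syt17 (−0.47, edgeR adjusted p 0.0379), which was longer.

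A length test on all 87822 regions with a peak in 3 libraries or more mostly recounted presence. It called 810 shorter regions (0.922%) and 1582 longer ones (1.8%), or 2.72% in all, of which 668 and 1496 had peaks in 1 genotype only. With an offset of 1000 bp in place of 100 bp the counts were 355 and 334. Without cKO 1, cKO 2 or cKO 4 the longer regions numbered 3, 1 and 5 and the shorter ones 673, 598 and 422, and without Control 1 the shorter ones numbered 1479.

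Peak scores were tested beside lengths. Fold enrichment, the authors' ratio of pileup to local input, was tested at the 39655 regions after centring each library. It was lower by the cKO label at 323 regions (0.815%) and higher at 139 (0.351%), or 1.17% in all, and 10 of the 323 were among the 58 called shorter. The 58 had a median log2 difference in fold enrichment of −0.35, beside −0.03 over all 39655. Without centring the counts were 223 and 212. The pileup alone gave 34 lower (0.0857%) and 1 higher (0.00252%), or 0.0883% in all. With each library centred on its median over all 39655 regions, the derived background at the 323 lower regions was higher by the cKO label in 295, with a median log2 difference of 0.53, and the pileup was lower in 287, with a median of −0.23. At the 139 higher regions the background was lower in 138, with a median of −0.61. Each background comes from 1 input library a genotype, so at these regions the inputs and the genotypes cannot be told apart. On the same centred scale the pileup at the 58 shorter regions differed by a median of −0.36 and was lower in 52.

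The score calls with the smallest adjusted p illustrate both parts. The region chr10:33621105-33623332 ran from −3141 to −914 bp of the start of Gm15939. Its fold enrichment was 2.95, 3.81 and 3.53 in cKO-labelled libraries and 9.10, 8.45, 8.59 and 8.27 in Control-labelled ones (log2 −1.39, SE 0.13, limma adjusted p 0.00058). The pileup there was lower too, 10.1, 13.9 and 13.1 against 29.5, 29.01, 33.4 and 32.1. At Abcc8, a subunit of the ATP-sensitive potassium channel, the fold enrichment was 3.55, 4.12 and 4.56 against 11.7, 12.9, 8.97 and 10.8 (log2 −1.49, SE 0.14), but the pileup of 34.5, 36.1 and 44.6 overlapped that of 38.4, 50.6, 34.9 and 38.8. Copg2, a coatomer gene, and Tmem120b had the same form, with log2 differences in fold enrichment of −1.45 and −1.18 and overlapping pileups. On the higher side were Acvr2a (an activin receptor), with 12.8, 9.66 and 13.8 against 4.46, 4.12, 4.48 and 4.70, and Calm3 (a calmodulin gene), with 11.9, 10.49 and 14.97 against 5.95, 5.13, 6.31 and 5.15. Nemf, a gene of ribosome quality control, had 13.3, 14.5 and 13.8 against 7.43, 6.99, 6.86 and 6.88, and a region within Wnk4, a kinase gene, had 6.09, 5.06 and 5.55 against 2.75, 2.27, 2.63 and 2.83.

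The other marks were measured over the same H3K9ac regions in their own libraries, which shared the input of their genotype. H3K4me3 was shorter at 3279 of 87822 regions (3.73%) and longer at 182 (0.207%), or 3.94% in all. At the 58 regions of shorter H3K9ac it was shorter in 41, against 6.38% of the 39655 regions from which the 58 come. Its log2 difference had a median of −0.92 over the 58. The median H3K4me3 length there was 992 bp by the cKO label and 1966.5 bp by the Control label. Over the 39655 it was 634 against 648 bp. H3K27ac was shorter at 433 regions (0.493%) and longer at 224 (0.255%), 0.748% in all. Among the 58 it was shorter in 4 (165 of the 39655), with a median log2 of −0.70 (−0.01 over the 39655). H3K4me1 was shorter at 627 (0.714%) and longer at 347 (0.395%), 1.11% in all. Among the 58 it was shorter in 5 and longer in 3 (117 and 294 of the 39655), with a median log2 of −0.01. At the 23 regions of longer H3K9ac, no H3K4me3 call was made in either direction (limma, regions as above), H3K27ac was longer in 1, and the H3K4me3 length had a median of 0 bp in both genotypes.

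Whether H3K9ac changed by another amount than the other marks was tested by the interaction of mark and genotype. H3K9ac was lower relative to H3K27ac at 434 regions (0.494%) and higher at 1176 (1.34%), and relative to H3K4me3 it was lower at 640 (0.729%) and higher at 2373 (2.7%). The calls in both directions came to 1.83% and 3.43% of the regions. Many recounted H3K9ac presence. The 684 regions with peaks by the Control label only held 375 of the 434 and 439 of the 640 lower calls. The 1499 with peaks by the cKO label only held 955 of the 1176 and 1248 of the 2373 higher calls. At the 58 shorter regions, chosen by the same H3K9ac values, it was lower relative to H3K27ac in 9 and relative to H3K4me3 in 13, and higher relative to H3K4me3 in 8. On regions with a peak in every H3K9ac library the counts were 37 and 126 against H3K27ac and 180 and 942 against H3K4me3. Without cKO 1, cKO 2 or cKO 4 the higher counts were 109, 116 and 154 against H3K27ac and 823, 755 and 1213 against H3K4me3.

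Plasticity and learning genes had long H3K9ac regions whose lengths were mostly lower by the cKO label. Of 30 such genes on these chromosomes, 29 had a region with a peak in every library at their start or span end, and 1, Ppp3ca, was called shorter. The median log2 difference of the 29 was −0.26, 26 were negative, and at 16 every cKO-labelled library lay below every Control-labelled one, beside 8.75% over all 39655 regions. Those regions were shorter, with a median of 840 bp by the Control label against 4652 bp over the 30 genes. The share at regions of like length was not taken. Housekeeping genes had no overlap at 5 of 8, with a median log2 of −0.29. Over 13201 genes with RNA and such a region the median was −0.08 and 69.6% were negative, and over the 11460 of them with 1000 bp or more of H3K4me3 −0.09 and 72.9%. H3K4me3 was shorter at 17 of the 29, and at 1947 of the 13201. Grin1, the obligate subunit of NMDA receptors, had 2580, 2727 and 1829 bp against 4500, 4477, 4720 and 4122 bp at chr2:25314183-25319206 (log2 −0.93, SE 0.16, limma adjusted p 0.0829). Homer1, a scaffold of the postsynaptic density, had 2104, 2566 and 2530 bp against 4094, 4721, 4896 and 4471 bp at chr13:93304115-93309132 (log2 −0.92, SE 0.12, limma adjusted p 0.0513). Both had groups that did not overlap and adjusted p above the threshold. The activity-induced transcription factor gene Npas4 had 3657, 3632 and 2996 bp against 5078, 5806, 5613 and 5336 bp (limma adjusted p 0.0829). For Nptx2, a secreted pentraxin of synapses, the values were 1400, 1310 and 1387 bp against 1941, 2056, 2384 and 2306 bp (limma adjusted p 0.0767), and its RNA was lower (log2 −1.11, SE 0.12, edgeR adjusted p 0.00134). The growth factor gene Bdnf overlapped between genotypes, with 3406, 3233 and 3531 bp against 3684, 3521, 3752 and 3961 bp (log2 −0.14, SE 0.09).

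No gene of the H3K4 methylation machinery was called shorter or longer. Of 13 methyltransferase and COMPASS genes, 12 had a region in every library, none was called, the median was −0.14 and 9 were negative. At Setd1b itself H3K9ac covered 12048, 11536 and 11828 bp by the cKO label and 12834, 13858, 13072 and 12982 bp by the Control label at chr5:123128115-123142563 (log2 −0.16, SE 0.08, limma adjusted p 0.415), without overlap. Of 17 genes that place, remove or read H3K9ac, all had such a region, none was called and 14 were negative, with a median of −0.18. The 8 housekeeping genes had a median of −0.29 with 7 negative and 5 without overlap, and none was called. Of the 13201 genes, 21 were called shorter and 69.6% were negative, so a list of this size without a call is near the background.

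Markers of neurons carried H3K9ac in every library, and markers of some other cell types had little. All 8 pan-neuronal genes and 5 of 6 pyramidal genes had a region in every library. Of the microglial markers none did, and the longest of them had 148 bp on average in Control-labelled libraries. Astrocyte markers had such regions in 3 of 6 genes, oligodendrocyte markers in 2 of 6, endothelial markers in 2 of 5 and inhibitory neuron markers in 4 of 8. Markers of dentate granule cells, a neighbouring cell type, had lower lengths by the cKO label that did not pass, as had those of other types. The median log2 difference was −0.49 for dentate markers (3 of 3 regions negative), −0.46 for inhibitory (4 of 4) and −0.38 for astrocyte ones (3 of 3). It was −0.17 for CA1 (4 of 4) and −0.12 for CA3 (3 of 3). Oligodendrocyte and endothelial markers had −0.04 and 0.20 (1 of 2 each). Over 13201 genes it was −0.08, with 69.6% negative. At Prox1, C1ql2 and Dsp every cKO-labelled library was below every Control-labelled one (limma adjusted p 0.155 to 0.278), as at 5 of the 8 housekeeping genes, and Tdo2 had no region. The mean over the 4 genes was 1248 to 1401 bp by the cKO label and 1685 to 1854 bp by the Control label, and the RNA of C1ql2, Dsp and Tdo2 was lower (log2 −0.76, −0.78 and −0.70, edgeR adjusted p 0.0299, 0.0352 and 0.0201), while that of Prox1 differed by −0.02 (edgeR adjusted p 0.930). The part of a different mix of cells in the lengths above was not tested, and in bulk nuclei fewer cells of a type and less of the mark per cell cannot be told apart.

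RNA was compared in other libraries of neurons, where 393 of 19622 genes were lower by the cKO label (2%) and 146 higher (0.744%), 2.75% in all, in edgeR at an adjusted p under 0.05. Of these, 267 lower and 72 higher genes had an H3K9ac region with a peak in every library at their start or span end. H3K9ac length at the 267 had a median log2 difference of −0.18 with 81.3% negative, and at the 72 a median of 0.01 with 48.6% negative, beside −0.08 and 69.6% over all 13201 such genes. The mean length at the 267 was 2141, 2162 and 2062 bp by the cKO label and 2415, 2534, 2527 and 2557 bp by the Control label. At the 72 it was 1818, 1783 and 1677 bp against 1733, 1792, 1800 and 1841 bp, with overlap. Among genes with 1000 bp or more of H3K4me3, the 232 with lower RNA had −0.20 and 86.6% negative, against −0.09 and 72.9% of 11460. Of the 267, 3 had a region called shorter, as had 21 of the 13201.

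Those 3 genes are the first of the sequences above. Lrrc10b, a leucine-rich repeat gene, had 3.46 CPM by the cKO label and 20.3 by the Control label (log2 −2.55, SE 0.14, edgeR adjusted p 3.33e-05). Its H3K9ac was 1563, 1212 and 1410 bp against 3012, 2768, 2806 and 2960 bp at chr19:10454288-10457304 (log2 −1.06, SE 0.11, limma adjusted p 0.0365), and its H3K4me3 1012 ± 15.7 against 2992 ± 49.5 bp (limma adjusted p 2.75e-08). Sstr4 had 16.2 against 63.7 CPM (log2 −1.97, SE 0.14, edgeR adjusted p 0.000129), with 3692, 3289 and 3517 bp of H3K9ac against 6229, 6191, 6453 and 6142 bp at chr2:148394642-148401232 (limma adjusted p 0.0365). H3K27ac at Sstr4 was 5914 against 5649 bp, and there H3K9ac fell relative to H3K27ac (limma interaction adjusted p 0.00707). This region too was chosen by the same H3K9ac values, which favours such a result. Nsmce3, a subunit of the SMC5/6 complex of DNA repair, had 29.6 against 50.1 CPM (log2 −0.76, SE 0.08, edgeR adjusted p 0.00106) and 1314, 958 and 1462 bp of H3K9ac against 2811, 3153, 3168 and 3107 bp at chr7:64869666-64873026 (limma adjusted p 0.0443). In each of the 3 the genotypes did not overlap in H3K9ac, as in all 81 regions called for length.

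Lower RNA also occurred where H3K9ac lengths overlapped between genotypes. Kctd4 (a potassium channel tetramerisation domain gene) had a log2 RNA difference of −2.56 (SE 0.16, edgeR adjusted p 4.83e-05) and 2931, 2898 and 3106 bp of H3K9ac against 3047, 2897, 3208 and 3235 bp, with overlap, although its H3K4me3 was shorter (1987 against 3115 bp, limma adjusted p 0.00444). Npr1, a natriuretic peptide receptor gene, had a log2 RNA difference of −2.87 (SE 0.17, edgeR adjusted p 4.83e-05) and overlapping H3K9ac of 999, 1034 and 910 bp against 1186, 1166, 994 and 1139 bp. Both belong to a list of 15 genes taken from earlier results on the RNA of these samples, of which 7 had a region in every library and 1, Lrrc10b, was called shorter. Of the 21 genes with RNA and a shorter region, 16 had a negative RNA difference, with a median log2 of −0.16, against 6911 of all 13201 and −0.01.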

How the data were processed

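H3K9ac, H3K27ac, H3K4me1 and H3K4me3 peak lists and counts of RNA from sorted neurons were used. Per the file headers the authors called peaks in each library with MACS 2.1.0.20140616 (2.1.1.20160309 for H3K4me3) against an input of the same genotype at a q cutoff of 0.1. The deposited lists give, per peak, a length, the pileup at the summit, −log10 p and −log10 q values, and a fold enrichment, the ratio of pileup to local background. The RNA values are the authors' deposited counts of reads per gene, whose counting tool is not given in the sources used here. The builds named in the submitters' processing notes are mm10 and GRCm38, with MACS2 and SAMtools as tools.

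Overlapping peaks of the 7 H3K9ac libraries were merged into regions, and the base pairs covered per library were tested with limma 3.58.1 (R 4.3.3) on log2(bp + 100), or log2(bp) where every library had a peak, with Benjamini-Hochberg adjustment over all regions. Score tests used the highest fold enrichment in a region, each library centred on its median. RNA was tested with edgeR 4.0.16, with DESeq2 1.42.0 as an alternative. Measures of 1 value per library had two-sided exact permutation tests. Genes and starts came from RefSeq (GRCm38.p6), where a region within 1000 bp of a start or gene end took its name. A gene end was used only for genes without a start in the table, so it can be the start.

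Regions named were the 12 shorter and 8 longer ones with the smallest adjusted p and no overlap, 4 absent and 4 present in 1 genotype with the longest peaks, and 4 lower and 4 higher scores. Members, lists and tests were chosen with earlier results of these data known. The profile around starts, the ratio of its sides, the heights by class and the split of named regions were added after the data were seen. Genes on chromosome 18 stay in the counts and are not named. Alternatives were other peak thresholds, merging, offsets, centring and scores, a lane, a replicate block and leaving out each library. The limma tests of H3K9ac length and score and the edgeR test were first tried on simulated data with known answers. The other tests were not. Among 100 changes of log2 1 and 100 of log2 2, length over 87822 regions called 0 and 0. Length with a peak in every library called 40 and 82, scores 98 and 100, and edgeR 92 and 100. False calls among the unchanged numbered 5 for length with a peak in every library, 13 for scores and 11 for edgeR. Length over 87822 regions called 100 of 100 regions whose peak was removed in cKO.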

Additional observations from a re-analysis of the deposited data

Results flagged for a closer look

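In 2 of 40 groups of 4 Control-labelled H3K9ac libraries 1 library stood apart, by a gap to its neighbour of 0.839 and 0.897 of the group's range, past Dixon's critical value. Chance gives about 1 in 20 groups. In the class with 4000 bp or more of H3K4me3, Control 1 had a mean H3K9ac length of 5588.1 bp, below the other Control-labelled libraries and above every cKO-labelled one. At the region within Prickle2, Control 4 had 676.0 bp, above the other Control-labelled libraries and below every cKO-labelled one.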

How the results depend on the processing

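The fall in the downstream over upstream ratio kept its direction in the 3 classes with 1000 bp or more of H3K4me3 under each alternative run. Its log2 difference was −0.35, −0.44 and −0.41 within lane 6, from the narrowest to the broadest class, where 2 against 3 libraries cannot pass the test. Without 1 library in turn it was −0.42 to −0.36, −0.50 to −0.45 and −0.45 to −0.42. With only peaks of −log10 q of at least 5, length by class gave 0.91 (H3K27ac only), 0.35 (H3K4me3 under 1000 bp), −0.18 (2000 to under 4000 bp) and −0.24 (4000 bp or more), all past the test. In the class with neither mark the direction turned, to 0.53 under that threshold, and it ran from −0.13 to 0.21 without 1 library. The median width turned to −0.12 under that threshold, and the covered length to −0.0022 within lane 6. The cause was not tested. The median of covered length was not run for the class with neither mark.

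The replicate numbers gave no sign of pairing: deviations of same-numbered libraries had r of −0.01, 0.02 and −0.0047. All pairs lay between −0.041 and 0.028, too small to show whether libraries were paired. Both cKO 1 and cKO 2 correlated best with Control 2, and cKO 4 with Control 1. With the replicate block, the side ratios were −0.38, −0.46 and −0.42 (3 pairs cannot pass). Length called 0 lower and 0 higher at all tested regions and 0 and 0 at regions with a peak in every library. The block gave 112 lower and 60 higher scores and 59 higher genes in RNA.

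Counts of called regions moved with the settings. Length at all tested regions gave 195 lower and 944 higher when peaks within 1000 bp were merged, 1242 and 5 within lane 6, 355 and 334 with an offset of 1000 bp, and 454 and 956 at −log10 q of at least 5. Without 1 library it gave 422 to 1479 and 1 to 2352. At regions with a peak in every library it gave 230 and 39 after centring, 17 and 36 after merging, 0 and 0 within lane 6, 447 and 127 at the stricter q, and 0 to 2 and 0 to 0 without 1 library. All 41 regions named from that test kept their direction wherever the region was formed; every leave-one-out, lane 6 and the block ended their calls, with adjusted p up to 0.3295, and centring kept all 41. Scores gave 85 and 32 within lane 6, 24 and 4 by −log10 p, 34 and 1 by pileup, 1 and 0 by −log10 q, 487 lower when weighted by length, and 212 higher without centring. Without 1 library they gave 137 to 196 and 39 to 93. The 8 named scores kept their calls in each leave-one-out, lane 6 and the block, and 7 of them lost it by pileup. Against H3K27ac, length gave 37 lower and 126 higher at regions with a peak in every H3K9ac library, and 511 to 901 and 109 to 1877 without 1 library. Against H3K4me3 it gave 180 and 942, and 831 to 1372 and 755 to 3497. Presence gave 155 and 838 at the stricter q, 196 and 889 after merging, and 1009 to 1373 and 2004 to 5231 without 1 library. RNA gave 230 higher genes in DESeq2, and 186 to 364 lower and 21 to 118 higher without 1 library.

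With 3 against 4 libraries the smallest exact p is 0.0286, and 42.8% of regions had a peak in 1 library only.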
